A study of Mus musculus with 73 samples.

Results

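Naive and core pluripotency genes are the transcription factors, chromatin proteins and signalling proteins that mark mouse embryonic stem (ES) cells. The set described here has 31 genes, taken by symbol from a deposited RNA count table of 37310 genes. All 31 were found on 1 row each, and all 31 passed the filter on low counts, with at least 165 counts in every library. They were ordered by role: 4 core factors, 10 naive transcription factors, 6 chromatin and telomere factors, 5 signalling and cell-surface proteins, 3 RNA-binding or protein-turnover factors and 3 other regulators.

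Oct4 (the product of Pou5f1), Sox2 and Nanog bind enhancers together and hold ES cells in a state from which all embryonic lineages can form. Around this core, factors such as Klf4, Esrrb, Tfcp2l1 and Tbx3 mark the naive state of the inner cell mass, which leukemia inhibitory factor (LIF) sustains in culture. As cells leave that state the naive factors decline before the core factors do, and in serum with LIF their levels vary from cell to cell.

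RNA was sequenced from male XY ES cells of the line E14Tg2a (strain 129/Ola), grown feeder-free on gelatin with serum and LIF, and from clones of that line edited with CRISPR or TALENs in the Xic, the X-inactivation centre with the genes Xist and Tsix. The 40kb [Tsix-Xist] allele had 4 libraries (clone 1, named 2G1, and clone 2, named 3D5, with 2 replicates each), and the 70kb [Xite-Jpx] allele had 4 (clone 1, named 18C6, and clone 2, named 20E7, with 2 replicates each). Each allele had 2 unedited wild-type libraries of its own, and all 12 libraries are of undifferentiated cells. The sources used here do not say which allele is an inversion and which a deletion, nor whether replicates came from separate cultures, so that p-values measure only the spread between these libraries, which may be technical. The 4 libraries of an allele come from only 2 clones, and the main tests count each library as a separate sample.

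The 12 libraries held 34514493 to 46605508 counts. The markers fixed for ES cells (Pou5f1, Sox2, Nanog, Zfp42 and Esrrb) had at least 11285 counts in every library. Levels are given as CPM, in which each count is divided by its library's total after scaling between libraries. They take no account of gene length, so that levels are compared between libraries and not between genes. In bulk RNA, fewer cells expressing a gene and less of its RNA per cell cannot be told apart. Pou5f1, Nanog, Dppa3 and Dppa5a have near-identical pseudogene copies in the mouse genome, and how reads shared with such copies, or with genes on the opposite strand, were counted is not stated in the sources used here.

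The promoters of 3 genes are printed here, from a search for kinds of sequence that such factors bind. Binding itself was not measured. Nanog is shown because its window holds a composite octamer and Sox site, Zfp42 because it holds an octamer and a Klf-type site, and Nr0b1 because its RNA rose in the 40kb libraries. Each run is the 250 bases before a gene start, 5′ to 3′ on the gene's strand, from RefSeq's annotation of GRCm38.p6, with matches to the searched motifs in capitals. The windows are chr6:122707315-122707564 (plus strand), chr8:43307010-43307259 (minus strand) and chrX:86191525-86191774 (plus strand).
Nanog: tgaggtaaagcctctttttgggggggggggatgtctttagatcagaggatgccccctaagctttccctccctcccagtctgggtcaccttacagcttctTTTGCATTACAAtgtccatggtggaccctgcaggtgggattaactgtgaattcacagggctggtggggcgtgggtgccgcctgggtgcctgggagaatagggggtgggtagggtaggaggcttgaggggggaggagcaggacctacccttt
Zfp42: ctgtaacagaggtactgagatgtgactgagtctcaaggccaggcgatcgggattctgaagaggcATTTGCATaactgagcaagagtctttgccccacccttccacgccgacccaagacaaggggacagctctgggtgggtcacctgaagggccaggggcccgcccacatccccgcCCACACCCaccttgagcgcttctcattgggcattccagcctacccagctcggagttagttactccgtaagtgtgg
Nr0b1: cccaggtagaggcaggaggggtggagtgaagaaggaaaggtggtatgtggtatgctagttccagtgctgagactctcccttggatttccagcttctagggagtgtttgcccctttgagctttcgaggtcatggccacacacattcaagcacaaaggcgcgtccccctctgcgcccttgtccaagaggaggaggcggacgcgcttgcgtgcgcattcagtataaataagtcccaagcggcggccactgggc

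The motifs searched on both strands were the octamer ATTTGCAT, a composite of TTTGCAT, 1 base of any kind and ACAA, the Esrrb-type element CAAGGTCA and the Klf-type element GGGTGTGG. The octamer and the composite share the letters TTTGCAT and can overlap. Of the 31 genes, 19 had a usable promoter entry, with 28 windows among them. The composite occurred in both entries of Nanog, 151 to 140 bases before the start shown and 75 to 64 bases before the other. It was in 0.0335% of 32851 promoter windows of the same length, the octamer in 1.6%, CAAGGTCA in 1.33% and GGGTGTGG in 3.2%. The octamer was in 1 window each of Zfp42 and Spp1, GGGTGTGG in that of Zfp42, and CAAGGTCA in none of the 28 windows. The Nr0b1 window held none of the 4, which says only that these letters are not in this window.

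In the 40kb libraries most of the 31 genes had higher RNA than in their wild type, and 2 of them passed the test. Nr0b1 and Dppa2 rose, and no gene of the set fell (edgeR quasi-likelihood test, Benjamini-Hochberg adjusted p under 0.05). Of all 16636 genes tested 6.43% were called, 0.763% higher and 5.67% lower. The log2 fold change was above 0 for 29 of the 31 genes, with a median of 0.50, and 56.2% of all genes tested were above 0, with a median of 0.06. At an unadjusted p under 0.05 there were 18 of the 31 genes and 3914 of the 16636. All 4 allele libraries lay above both wild-type libraries for 15 of the 31 genes (16.4% of all genes tested) and below both for 1, Dppa3 (19.7% of all genes tested). Set against the wild-type libraries of the 70kb allele, 26 of the 31 genes were above 0 and the median was 0.265. At an unadjusted p under 0.05 (edgeR) there were then 8 of the 31 genes and 2134 of the 16636. The count of 18 thus depended on which wild-type libraries were used. With only replicate 1 of the 40kb set's own wild type kept, the median was 0.441. With only replicate 2 kept it was 0.715, and 29 genes were above 0 in each case.

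**Figure D1:**
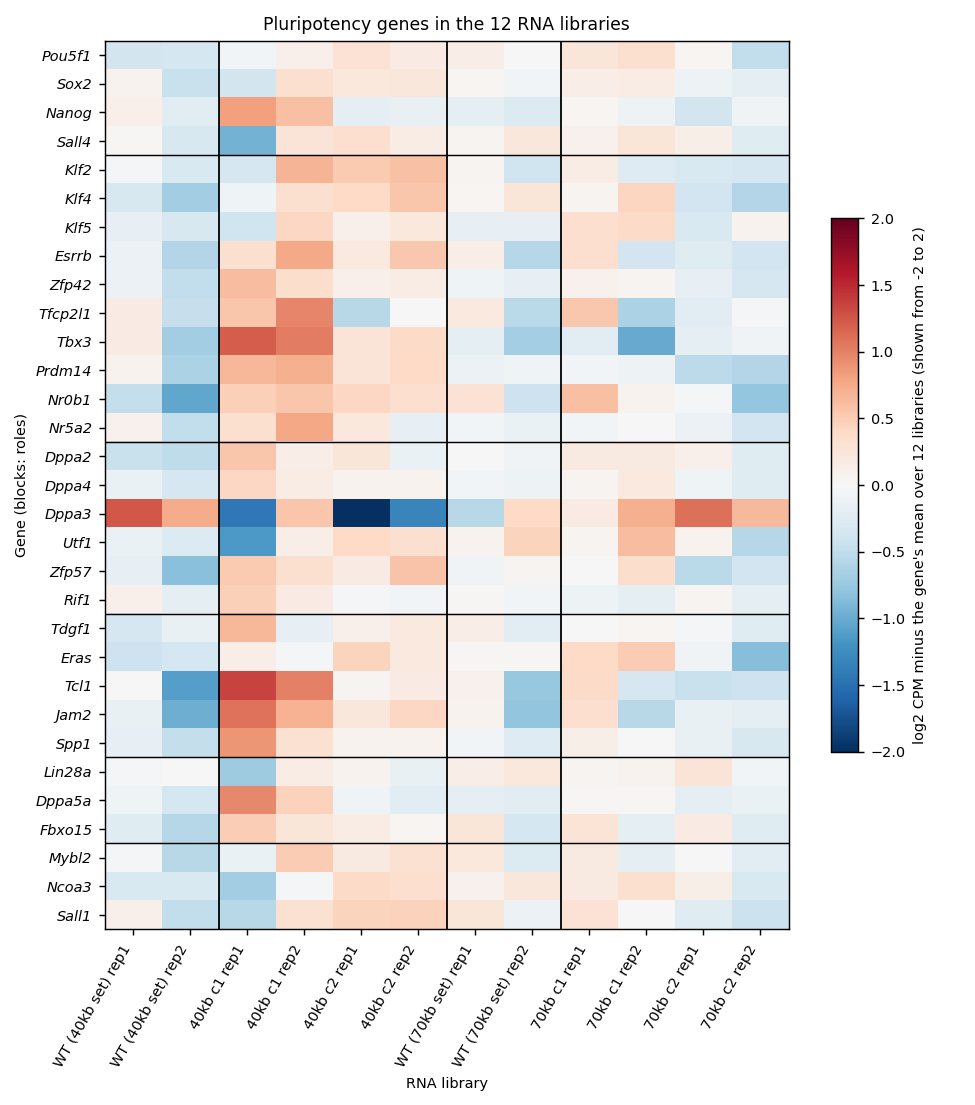
Heat map of the 31 genes (vertical axis, in blocks by role) in the 12 RNA libraries (horizontal axis; c1 and c2 are the clones, rep the replicates). Colour is log2 CPM minus the gene's mean over the 12 libraries, on a scale from -2 to 2. Wild-type replicate 2 of the 40kb set is the lowest of the 12 libraries for 16 genes, and clone 1 replicate 1 of the 40kb allele the highest for 12 and the lowest for 6.

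Nr0b1 (ENSMUSG00000025056.4), also called Dax1, is an orphan nuclear receptor gene on the X chromosome whose product binds Oct4 and other naive factors. Its level was 91.3 and 61.4 CPM in the 40kb set's wild type and 176 and 185 CPM in clone 1, while clone 2 gave 168 and 159 CPM. The allele and wild-type libraries did not overlap, and the 4 allele libraries lay close together. The group means were 76.4 ± 21.1 CPM (SD, n = 2) and 172 ± 10.8 CPM (SD, n = 4), a 2.25-fold rise (log2 fold change 1.17, SE 0.32, adjusted p = 0.046, edgeR).

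Dppa2 (ENSMUSG00000072419.4) encodes a chromatin protein that works as a pair with Dppa4 at promoters of germline and early embryonic genes. Its level was 103.7 and 98.9 CPM in wild type and 208 and 154 CPM in clone 1, while clone 2 gave 166 and 129 CPM. Every allele library was above both wild-type libraries, and the wild-type libraries differed by less than the allele libraries did. The SD was 3.39 CPM in wild type (n = 2) and 32.8 CPM in the allele (n = 4), and Dppa2 rose 1.62-fold (log2 fold change 0.70, SE 0.18, adjusted p = 0.0392, edgeR).

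Both calls depended on which libraries were used. Neither was called without wild-type replicate 1 or without wild-type replicate 2 of the 40kb set, without clone 2 replicate 1 of either allele, or with counts summed per clone. Without either of those wild-type libraries 0 of all 16636 genes were called. Nr0b1 was also not called with library totals as the scaling or with a filter at a mean of 50 counts, and Dppa2 not in a fit of only the 6 libraries of the 40kb set. Against the other set's wild type the log2 fold change was 0.46 for Nr0b1 (adjusted p = 0.533) and 0.26 for Dppa2 (adjusted p = 0.542, edgeR). Other single libraries moved the count of called genes of the set to 1. This was Klf2 without 40kb clone 1 replicate 1 (3.18% of all genes called) and Dppa3 (lower) without 40kb clone 1 replicate 2 (1.67%). It was Dppa2 without 40kb clone 2 replicate 2 (6.62%) and Zfp57 without 70kb clone 1 replicate 2 (5.52%). The count was 4 without 70kb clone 1 replicate 1 (7.77%) and 5 without 70kb clone 2 replicate 2 (9.12%), with Nr0b1 and Dppa2 among both. DESeq2 called 11.3% of all genes (2.64% higher) and 12 of the 31, all higher: Nr0b1, Dppa2, Klf4, Esrrb, Zfp42, Tbx3, Prdm14, Zfp57, Tcl1, Jam2, Spp1 and Fbxo15. The library columns carry a code whose meaning is not given, and each wild-type library of the 40kb set shares it with 1 allele library. The codes of 40kb clone 1 replicate 1 and 40kb clone 2 replicate 1 occur in no other library. With the code as a block, those libraries did not inform the 40kb comparison, which rested on the 2 pairs that share a code. With that code as a block 2.15% of all genes were called (0.547% higher) and 5 of the 31, all higher (Klf2, Esrrb, Jam2, Fbxo15 and Mybl2), with neither Nr0b1 nor Dppa2 among them. Within the shared codes Nr0b1 was at 185 CPM in clone 1 replicate 2 against 91.3 CPM in wild-type replicate 1, and at 159 CPM in clone 2 replicate 2 against 61.4 CPM in wild-type replicate 2. Dppa2 was at 154 against 103.7 CPM and at 129 against 98.9 CPM in the same pairs.

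**Figure D2:**
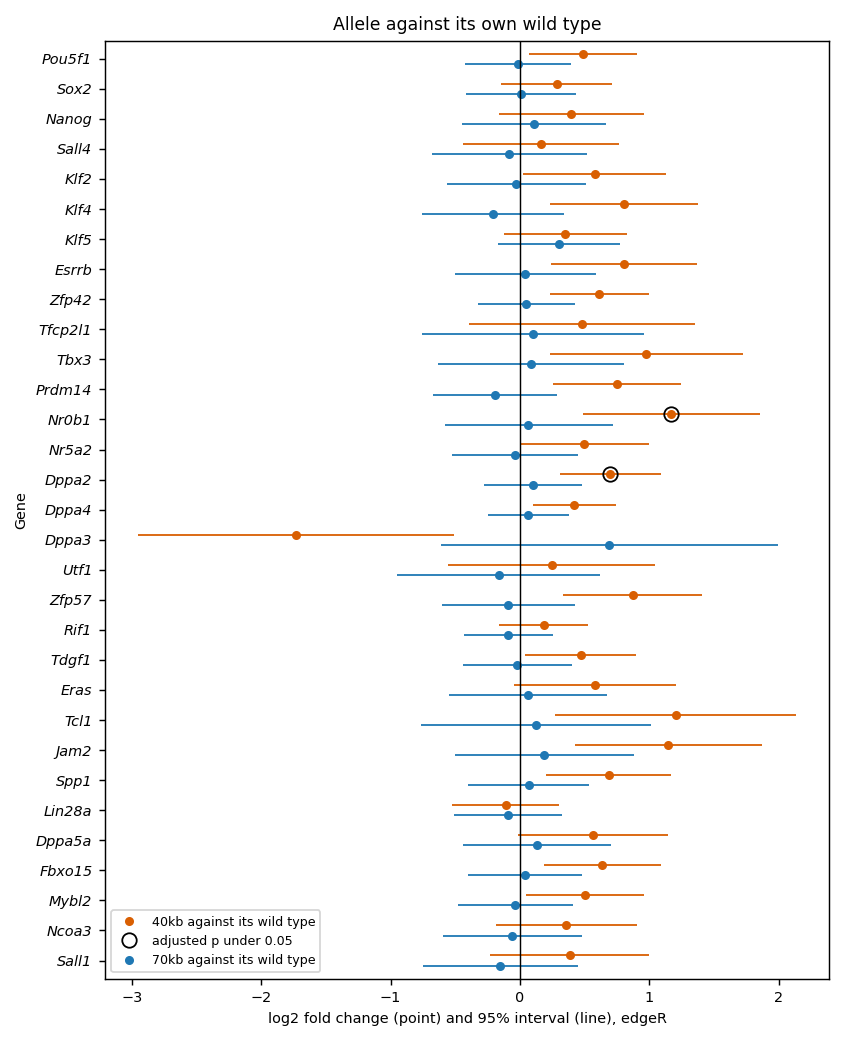
Log2 fold change of each of the 31 genes (vertical axis) in the allele libraries against their own wild type (horizontal axis), as points with 95% intervals from edgeR, orange for the 40kb and blue for the 70kb allele. Rings mark the 2 called genes, Nr0b1 and Dppa2, and 29 of the 31 orange points lie to the right of 0 while the blue points lie around it.

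The core factors were not called in the 40kb libraries. Pou5f1 (ENSMUSG00000024406.9), which encodes Oct4, was at 844 and 852 CPM in wild type and 1049 and 1165 CPM in clone 1, while clone 2 gave 1330 and 1225 CPM. The groups did not overlap, and its log2 fold change of 0.49 (95% interval 0.07 to 0.91) had an adjusted p = 0.148 (edgeR). Sox2 (ENSMUSG00000074637.3), the partner of Oct4 on DNA, was at 578 and 405 CPM in wild type and 426 and 687 CPM in clone 1, while clone 2 gave 637 and 644 CPM. Its wild-type libraries spanned more than the group means differed, and the groups overlapped (log2 fold change 0.28, 95% interval -0.15 to 0.71, adjusted p = 0.408, edgeR).

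Nanog (ENSMUSG00000012396.5), the homeobox gene whose level fluctuates between ES cells in serum, was at 420 and 336 CPM in wild type. It was at 694 and 597 CPM in clone 1, while clone 2 gave 345 and 353 CPM. Clone 1 lay above both wild-type libraries, while clone 2 lay between them, and the log2 fold change over both clones was 0.40 (95% interval -0.17 to 0.96, adjusted p = 0.374, edgeR). Sall4, a zinc-finger factor that sustains Pou5f1, had a log2 fold change of 0.16 (95% interval -0.44 to 0.77) and was at 133 CPM in clone 1 replicate 1, the lowest of the 12 libraries, against 284 to 323 CPM in the other 3 allele libraries.

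**Figure D3:**
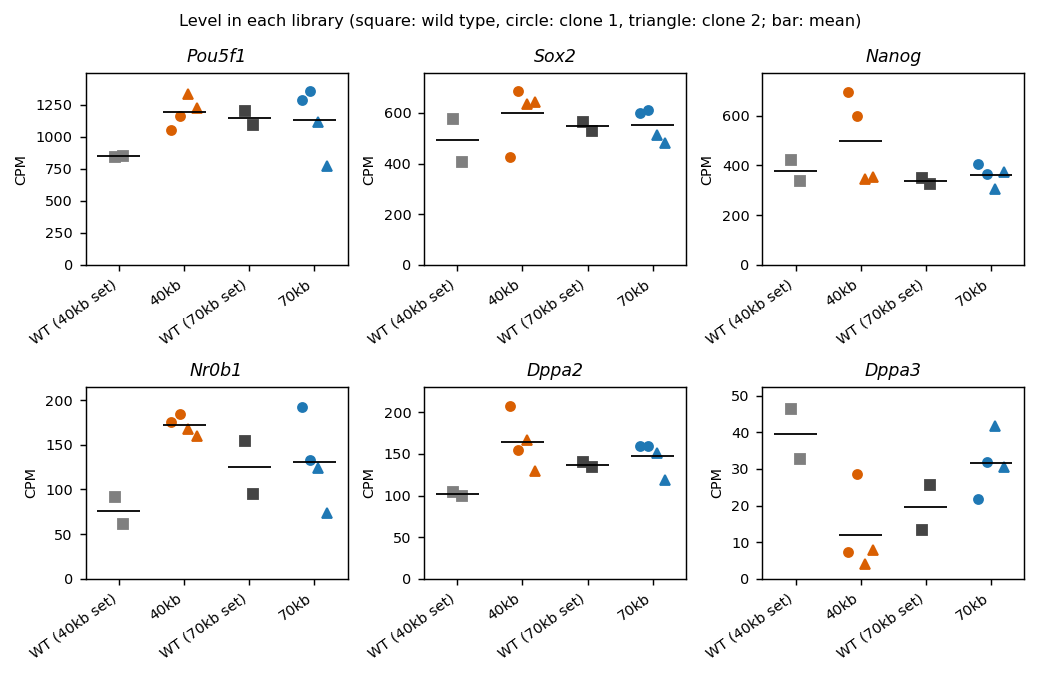
CPM (vertical axes, from 0) of Pou5f1, Sox2, Nanog, Nr0b1, Dppa2 and Dppa3 in each library, by group (horizontal axes); squares are wild type, circles clone 1, triangles clone 2 and bars group means. Nr0b1 and Dppa2 in the 40kb libraries lie above their wild type (159 to 185 against 61.4 and 91.3 CPM for Nr0b1), while Nanog of the 40kb allele is split by clone.

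Of the 10 naive transcription factors, Nr0b1 was called in the 40kb comparison and all 10 had a log2 fold change above 0, with a median of 0.68. The libraries of Klf4, Esrrb, Zfp42, Tbx3, Prdm14 and Nr0b1 did not overlap between allele and wild type. Esrrb, an orphan nuclear receptor that can stand in for Nanog, was at 435 ± 97 CPM (SD, n = 2) in wild type and 759 ± 134 CPM (SD, n = 4) in the allele (log2 fold change 0.80, SE 0.26, adjusted p = 0.0878, edgeR). Zfp42, the Rex1 gene widely used as a naive reporter, was at 447 and 347 CPM in wild type and at 524 to 745 CPM in the allele (0.61, SE 0.18, adjusted p = 0.0586). These genes differed by more than the SD of either group, short of the threshold. Prdm14, which holds down the de novo DNA methyltransferases, was at 17.4 ± 5.91 and 29.3 ± 4.29 CPM (0.75, SE 0.23, adjusted p = 0.0699).

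The Krüppel-like factors Klf2, Klf4 and Klf5, which overlap in function, had log2 fold changes of 0.58, 0.81 and 0.35, with adjusted p = 0.195, 0.0891 and 0.35 (edgeR). Klf4 was at 75.5 and 98.1 CPM in wild type and between 114 and 179.5 CPM in the allele libraries. Klf2 was at 153 CPM in clone 1 replicate 1, below both wild-type libraries (157 and 188 CPM), and at 278 to 310 CPM in the other 3 allele libraries. The T-box factor Tbx3 ran from 44.8 to 87.0 CPM in the allele libraries against 23.1 and 42.1 CPM in wild type (0.98, SE 0.34, adjusted p = 0.11, edgeR). Tfcp2l1, a naive factor downstream of LIF, was at 437 and 588 CPM in clone 1, while clone 2 gave 204 and 297 CPM, against 333 and 216 CPM in wild type. Both libraries of clone 1 exceeded wild type, and clone 2 had 1 library below both wild-type values and 1 between them. Nr5a2, a nuclear receptor that activates Pou5f1, overlapped between groups (0.50, 95% interval 0.00 to 1.00, adjusted p = 0.214).

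Among the 6 chromatin and telomere factors Dppa2 was called. Dppa4, its partner, was at 168 ± 16.9 CPM (SD, n = 2) in wild type and 225 ± 26.4 CPM (SD, n = 4) in the allele without overlap (log2 fold change 0.42, SE 0.15, adjusted p = 0.109, edgeR). Zfp57, which keeps DNA methylation at imprinted regions, was at 163 and 260 CPM in wild type and at 329 to 434 CPM in the allele (0.87, SE 0.25, adjusted p = 0.0553). Utf1, a chromatin-bound repressor, was at 106 CPM in clone 1 replicate 1 and at 257 to 310 CPM in the other 3 allele libraries, against 194 and 213 CPM in wild type. Rif1, a telomere and replication-timing protein, overlapped between groups (0.18, 95% interval -0.16 to 0.53).

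Dppa3 (ENSMUSG00000046323.2), also called Stella, protects DNA methylation in the fertilised egg and is expressed in a minority of ES cells in serum. Its level was 46.3 and 32.8 CPM in wild type and 7.27 and 28.6 CPM in clone 1, while clone 2 gave 4.08 and 7.78 CPM. All 4 allele libraries lay below both wild-type libraries, by much in 3 of them and by little in clone 1 replicate 2. The log2 fold change was -1.73 (SE 0.56, 95% interval -2.95 to -0.51) and it was not called (adjusted p = 0.0882, edgeR). Without clone 1 replicate 2 Dppa3 was called lower, and clone 2 on its own was at -2.74 (SE 0.58, adjusted p = 0.0374) with clone 1 at -1.15 (SE 0.54, adjusted p = 0.172, edgeR). Of the 12 libraries Dppa3 spanned 11.3-fold, the widest of the 31 genes, and Rif1 1.58-fold, the narrowest.

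None of the 5 signalling and cell-surface genes was called in the 40kb comparison (edgeR; 4 at an unadjusted p under 0.05, and 3 called by DESeq2), and their median log2 fold change was 0.69. Tcl1, a coactivator of the kinase Akt, was at 1.20 on the log2 scale (SE 0.43, adjusted p = 0.115) and Jam2, a junctional adhesion molecule, at 1.15 (SE 0.33, adjusted p = 0.0604). Clone 1 was the higher for both: Tcl1 was at 175 and 137 CPM in clone 1, while clone 2 gave 71.1 and 76.5 CPM, against 68.0 and 31.8 CPM in wild type. Spp1, the secreted protein osteopontin, was at 0.69 (adjusted p = 0.0864), Eras, a Ras-like protein of ES cells, at 0.58 (0.245) and Tdgf1, the Nodal co-receptor Cripto, at 0.47 (0.176). Tdgf1 was the only 1 of the 5 whose groups overlapped.

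The RNA-binding and protein-turnover genes gave no call. Dppa5a, a KH-domain RNA-binding protein, was at 3113 and 2198 CPM in clone 1, while clone 2 gave 1500 and 1357 CPM, against 1505 and 1253 CPM in wild type (log2 fold change 0.57, 95% interval -0.02 to 1.15). As with Nanog, clone 2 lay between the wild-type libraries. Fbxo15, an F-box protein used as an early reporter of reprogramming, was at 0.64 (adjusted p = 0.0898, edgeR) without overlap. Lin28a, which blocks maturation of the let-7 microRNAs, was at -0.11 (95% interval -0.52 to 0.31), with 345 CPM in clone 1 replicate 1 and 507 to 625 CPM in the other 3 allele libraries. The other regulators Mybl2 (a cell-cycle factor), Ncoa3 (a coactivator that Esrrb recruits) and Sall1 (a zinc-finger factor) were at 0.50, 0.36 and 0.38, all with overlapping groups.

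The clones of the 40kb allele differed among themselves. Clone 2 against clone 1 gave 0 calls among the 31 genes, where 0.0661% of all genes were called (edgeR; 11 of the 31 at an unadjusted p under 0.05, 2758 of all genes, with 3.35% of all genes called by DESeq2 and 2 of the 31, Nanog and Dppa5a). The smallest adjusted p-values were those of Nanog (log2 difference -0.89, 95% interval -1.23 to -0.54, adjusted p = 0.0593) and Dppa5a (-0.90, 95% interval -1.26 to -0.53, adjusted p = 0.0609, edgeR). Dppa3 (-1.60), Tcl1 (-1.08), Tfcp2l1 (-1.03) and Tbx3 (-0.80) also had values below 0 for clone 2, and Ncoa3 (0.68) above 0, with adjusted p from 0.175 to 0.231. Taken alone against wild type, clone 1 gave 14 calls among the 31 genes, all higher and Nanog among them (log2 fold change 0.77, SE 0.16, adjusted p = 0.0114, edgeR). Clone 2 gave 2, Klf4 higher (0.97, SE 0.20, adjusted p = 0.0344) and Dppa3 lower. Of all genes 14.9% were called in clone 1 (4.72% higher) and 3.19% in clone 2. Nr0b1 was at 1.24 in clone 1 and 1.10 in clone 2, and Dppa2 at 0.84 and 0.55.

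**Figure D4:**
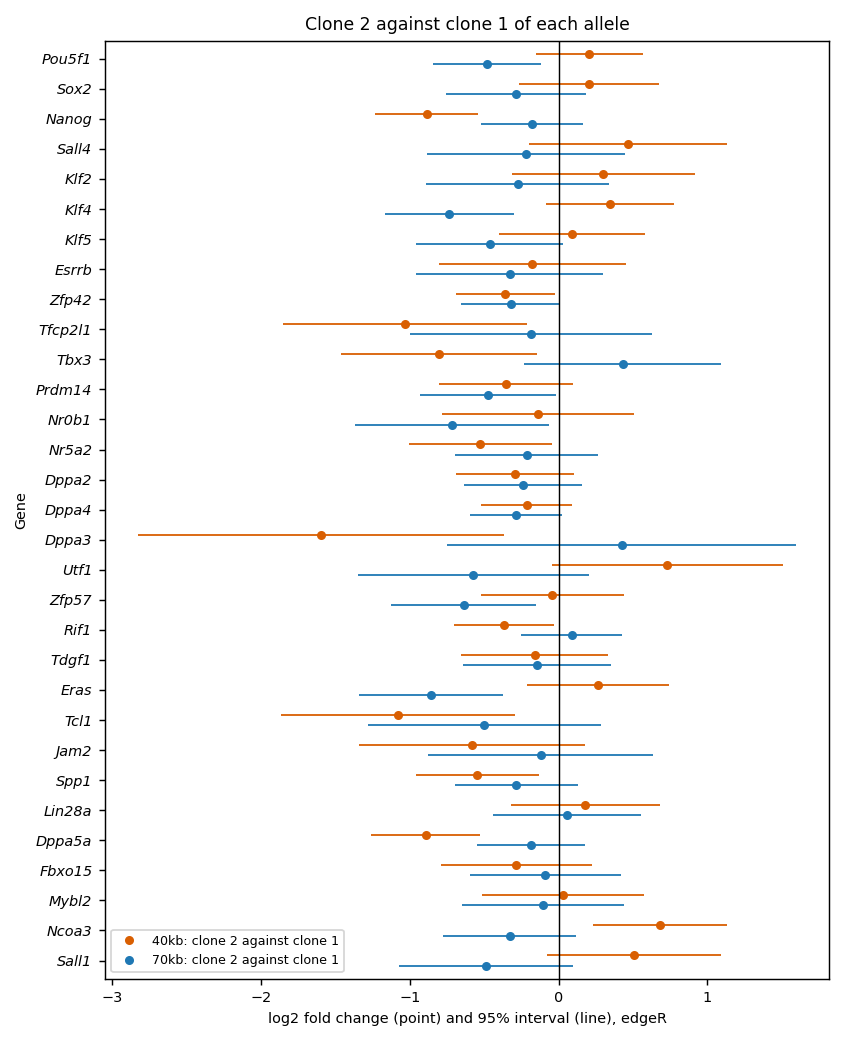
Log2 difference of clone 2 from clone 1 (horizontal axis) for each of the 31 genes (vertical axis), as points with 95% intervals from edgeR, orange for the 40kb and blue for the 70kb allele. In the 40kb allele Nanog and Dppa5a lie at -0.89 and -0.90, and in the 70kb allele 27 of 31 points lie below 0; no gene of the set was called in either.

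In the 70kb libraries none of the 31 genes was called, and 0% of all genes were (edgeR; at an unadjusted p under 0.05 there were 0 of the 31 and 100 of all genes, and DESeq2 called 0.018% of all genes and 0 of the 31). The median log2 fold change was 0.04, with 17 genes above 0, and over all genes it was 0.005, with 51.4% above 0. That count rested on single libraries: it was 8 (median -0.08) without clone 1 replicate 1, 24 (median 0.095) without clone 2 replicate 2, 23 (median 0.133) without wild-type replicate 1 and 11 (median -0.08) without wild-type replicate 2. With the column code as a block it was 17 (median 0.048). The intervals given for single genes of the 70kb comparison come from the fit without a block. Clone 1 alone had 28 genes above 0 (median 0.191) and clone 2 alone 7 (median -0.121). Against the other set's wild type 25 genes were above 0, with a median of 0.217. Allele and wild-type libraries overlapped for all 31 genes, where 2.4% of all genes lay wholly above and 3.08% wholly below.

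Pou5f1 was at 1200 and 1092 CPM in the 70kb set's wild type and 1290 and 1356 CPM in clone 1, while clone 2 gave 1117 and 775 CPM. Its log2 fold change was -0.02 (95% interval -0.42 to 0.39). Nanog was at 348 and 324 CPM in wild type and 405 and 365 CPM in clone 1, while clone 2 gave 305 and 374 CPM (0.11, 95% interval -0.45 to 0.66). Sox2 was at 564 and 530 CPM in wild type and 600 and 612 CPM in clone 1, while clone 2 gave 511 and 481 CPM (0.01, 95% interval -0.41 to 0.44). For these 3 core genes the spread between the clones was larger than the difference from wild type.

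Nr0b1 was at 154 and 95.2 CPM in the 70kb set's wild type and 192 and 133 CPM in clone 1, while clone 2 gave 124 and 73.7 CPM (log2 fold change 0.07, 95% interval -0.58 to 0.72). Dppa2 was at 139.8 and 134 CPM in wild type and 160.1 and 159 CPM in clone 1, while clone 2 gave 151 and 119 CPM (0.10, 95% interval -0.28 to 0.48). Dppa3 was at 13.3 and 25.7 CPM in wild type and 21.8 and 32.0 CPM in clone 1, while clone 2 gave 41.7 and 30.5 CPM. Its log2 fold change of 0.69 had the widest interval of the set (95% interval -0.61 to 2.00, adjusted p = 1, edgeR). Apart from Dppa3, the log2 fold changes ran from -0.21 (Klf4) to 0.30 (Klf5).

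Clone 2 of the 70kb allele was below clone 1 for 27 of the 31 genes, with a median log2 difference of -0.28, and 0 of them were called, where 0.012% of all genes were (edgeR; 6 of the 31 at an unadjusted p under 0.05, 1579 of all genes, with 1.1% of all genes called by DESeq2 and 1 of the 31, Eras). Over all genes 48.5% lay above 0. The largest differences were those of Eras (-0.86, 95% interval -1.34 to -0.37, adjusted p = 0.275), Klf4 (-0.73, adjusted p = 0.293) and Nr0b1 (-0.72, adjusted p = 0.475, edgeR). The fibroblast and trophoblast markers lay the other way. In clone 2 against clone 1 the median log2 difference was 3.23 for the fibroblast and smooth muscle markers, with 8 of 9 tested above 0, and 1.67 for the trophoblast and simple-epithelium markers, with 7 of 8 tested above 0. None of these markers was called (edgeR; 4 and 5 at an unadjusted p under 0.05), and their part in the clone difference was not tested. The median was 1.14 for mesoderm markers (4 of 5 tested above 0) and 1.82 for 2-cell-like genes (4 of 4). For neural markers it was 0.22 (2 of 3) and for primitive endoderm markers 0.10 (5 of 9).

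Whether the alleles differed in their effect was tested directly as an interaction. None of the 31 genes was called, and 0% of all genes were (edgeR; 7 of the 31 and 2128 of all genes at an unadjusted p under 0.05, and DESeq2 called 2.4% of all genes and 0 of the 31). The effect was the greater in the 40kb allele for 29 of the 31 genes, with a median difference of 0.53 on the log2 scale, against 55.3% above 0 and a median of 0.06 over all genes. The 7 genes were Nr0b1 (1.10, 95% interval 0.18 to 2.02, adjusted p = 0.28), Klf4 (1.02, 0.246), Zfp57 (0.96, 0.242), Prdm14 (0.94, 0.221), Dppa2 (0.59, 0.322), Zfp42 (0.56, 0.349) and Dppa3 (-2.42, 0.238).

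The wild-type sets have the same genotype label, but the library columns name their cells differently, and what that difference means is not given. The 31 genes were lower in the wild type of the 40kb set for 27 of 31, with a median log2 difference of -0.18 (48.9% above 0 and a median of -0.01 over all genes). None was called, and 0% of all genes were (edgeR; 1 of the 31, Dppa2, and 394 of all genes at an unadjusted p under 0.05, and DESeq2 called 0 of all genes). The lower levels rested on single libraries: without replicate 2 of the 40kb set's wild type 15 of the 31 genes were above 0 (median -0.005), without its replicate 1 there was 1 (median -0.41), and without replicate 1 of the 70kb set's wild type 10 (median -0.06). The sets share no column code, so that code and set cannot be told apart. Nr0b1 was at -0.71 (95% interval -1.46 to 0.05), Klf4 at -0.64 (-1.28 to 0.00) and Dppa2 at -0.44 (-0.87 to 0.00). Dppa3 was at 1.02 (-0.46 to 2.50), higher in the wild type of the 40kb set. With other wild-type libraries the 40kb values moved. Against the other set Ncoa3 was at -0.10 in place of 0.36, and against all 4 wild-type libraries Nr0b1 was at 0.77 (adjusted p = 0.0977) and Dppa2 at 0.46 (adjusted p = 0.0926, edgeR).

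Genes of the wider pluripotency network formed a separate list of 25 that holds none of the 31. In the 40kb comparison 3 of 25 were called, all higher, and the median log2 fold change was 0.27 with 18 above 0. They were Tet2, an enzyme that oxidises methylated cytosine (1.12, adjusted p = 0.0289), Dnmt3l, a cofactor of the de novo DNA methyltransferases (0.66, adjusted p = 0.0399), and Fgf4, the growth factor that drives cells out of the naive state (0.90, adjusted p = 0.0488, edgeR). Of 13 tested formative and primed genes, which rise on leaving the naive state, 2 were called and both were lower: Pim2, a kinase gene, at -1.59 (adjusted p = 0.0254) and Fgf5, the classical marker of primed cells, at -2.51 (adjusted p = 0.0323, edgeR). The median of that list was 0.23, with 8 above 0, and Pou3f1 was listed at 0 in all 12 libraries and not tested. In the 70kb comparison neither list had a call, with medians of -0.04 and -0.26.

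Fibroblast and trophoblast markers had their highest sums in the 2 libraries with the lowest sums of the 31 genes, 70kb clone 2 replicate 2 and wild-type replicate 2 of the 40kb set. The summed level of the 10 fibroblast and smooth muscle markers was 257 and 334 CPM in the 40kb set's wild type, against 6.42 to 38.8 CPM in the allele. It was 73.2 and 293 CPM in the 70kb set's wild type, against 42.1 to 551 CPM in that allele. For the 9 trophoblast and simple-epithelium markers the sums were 437 and 585 CPM against 17.8 to 51.1 CPM, and 108 and 444 CPM against 82.9 to 751 CPM. The summed level of the 31 genes was 10160 and 8521 CPM against 11960 to 14240 CPM in the 40kb comparison, and 11290 and 10030 CPM against 9196 to 11980 CPM in the 70kb comparison. In the 40kb comparison 7 of 9 tested fibroblast markers and 6 of 8 tested trophoblast markers were called, all lower. With the column code as a block 0 and 1 were called, in a comparison that rested only on the libraries that share a code. Col3a1, Postn and Lum among the fibroblast markers, and Cdx2, Elf5 and Gata3 among the trophoblast markers, were at 0 in clone 1 replicate 1. No marker of either list was at 0 in a wild-type library of the 40kb set.

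Among the other marker lists, 3 of 5 mesoderm, 1 of 3 neural and 1 of 9 primitive endoderm genes were called lower in the 40kb comparison. Of all genes 5.67% were called lower. The median log2 fold changes of these lists were -1.76, -0.44 and 0.17, and 6 of the 9 primitive endoderm genes were above 0. Of 4 tested 2-cell-like genes 0 were called (edgeR; 2 at an unadjusted p under 0.05), and their sum ran from 9.20 to 60.7 CPM in the allele against 8.86 and 11.95 CPM in wild type. The part of other cells in the levels of the pluripotency genes was not tested.

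**Figure D5:**
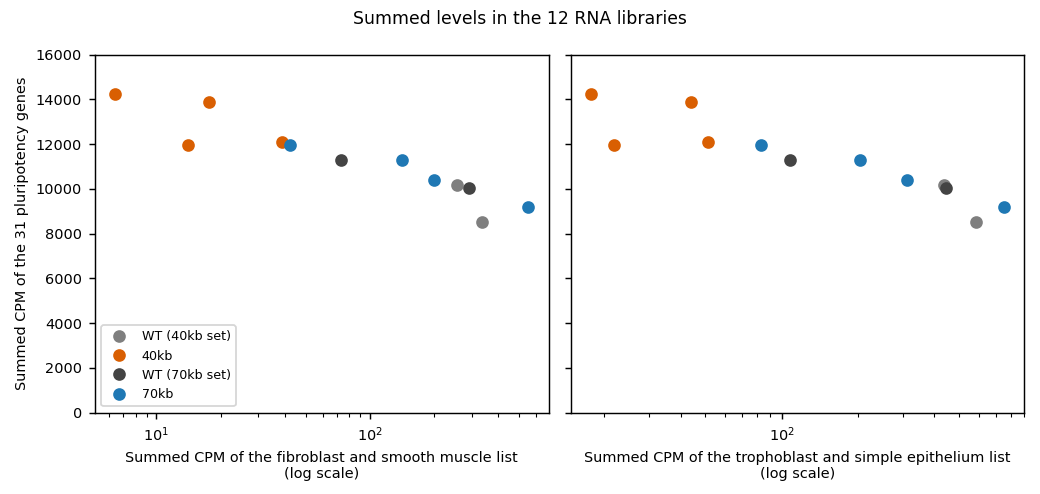
Summed CPM of the 31 pluripotency genes (vertical axes, from 0) against the summed CPM of the fibroblast and smooth muscle list (left, log axis) and of the trophoblast and simple epithelium list (right, log axis), 1 point per library, coloured by group. The 4 libraries of the 40kb allele have the lowest marker sums (6.42 to 38.8 and 17.8 to 51.1 CPM), and the 2 libraries with the highest marker sums have the 2 lowest sums of pluripotency genes.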

How the data were processed

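The 12 RNA libraries of 73 samples were used, and the other 61 were not analysed here. Per the labels' protocols, library preparation used a kit that keeps strand and selects mRNA. The authors deposited raw counts per gene. The submitters' processing notes name STAR, edgeR and mm9. Of 37310 gene identifiers 32620 matched a symbol. Counts were tested in edgeR 4.0.16 (R 4.3.3) with TMM scaling, the default filter on low counts (16636 genes tested) and quasi-likelihood F tests. The SE of an edgeR value was computed as the size of its log2 fold change divided by the square root of its F statistic. The 95% intervals were computed from that SE and a t quantile. A single fit with a mean per group left 8 residual degrees of freedom, with a biological coefficient of variation of 23.8%. Clones were compared in a fit with a mean per clone (6 residual degrees of freedom). P-values were adjusted by Benjamini-Hochberg over all genes tested, with a threshold of 0.05. DESeq2 1.42.0, other scalings, filters, blocks and left-out libraries were the alternatives. Replicate numbers paired the libraries of the 70kb set, where deviations of same-numbered libraries correlated at 0.21 to 0.68 and the numbers coincide with the column code, and not those of the 40kb set (-0.09 to 0.17). The fits were run on simulated data in which libraries varied independently. That simulation held no shared difference between clones, column codes or wild-type sets, so it cannot show how the fits handle them. All 31 genes are named, with every library's value for called genes and for Pou5f1, Sox2 and Nanog, and up to 3 called genes per other list. Every library's value of Dppa3 and of other single genes was added after their values were seen. The genes and lists were chosen with earlier results of these data known.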

Additional observations from a re-analysis of the deposited data

Results flagged for a closer look

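In 4 of 62 gene-by-allele groups of 4 libraries, 1 library stood far from the other 3, by a rule that chance meets in about 1 in 20 groups. Dppa3 in 40kb clone 1 replicate 2 was at 28.6 CPM, where the other 3 libraries were at 4.08 to 7.78 CPM. The other 3 cases were all 70kb clone 1 replicate 1: Esrrb at 692.6 CPM against 422.5 to 465.5 CPM, Klf2 at 213.5 CPM against 153.6 to 161.3 CPM, and Tcl1 at 89.58 CPM against 50.44 to 54.47 CPM. That library also had the lowest sum of trophoblast and simple-epithelium markers among the 70kb libraries, 82.9 CPM. Its deviations over all genes tested correlated at 0.675 with those of wild-type replicate 1 of the 70kb set, which shares its column code. Wild-type replicate 1 was likewise above wild-type replicate 2 for Esrrb (604.8 against 368.7 CPM) and Klf2 (201.9 against 146.6 CPM). The part of other cells in these values was not tested.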

How the results depend on the processing

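The 2 calls of the 40kb comparison (6.43% of all genes) became 12 with DESeq2, 1 with the library total alone as scaling (6.92% of all genes; all-gene median log2 fold change -0.05 in place of 0.06), 5 with no filter on low counts (5.48%), 1 with a mean of at least 50 counts (5.68%) and 0 with counts summed per clone (0.018%). They became 0 against the wild type of the other set (0%), 5 against all 4 wild-type libraries (7.17%), 14 in clone 1 alone and 0 to 5 with 1 library left out (0% to 9.12%). With a replicate block 6 genes were called (8.7% of all genes), and with the column code as a replicate block 5 (2.15%). The latter fit compared the 40kb allele with its wild type only through the libraries that share a code. No call changed under either block in the 70kb comparison or the difference between the alleles. The wild types of the sets share no block, and their comparison could not be fitted with one. Between the clones DESeq2 called 2 genes in the 40kb and 1 in the 70kb allele, and no filter 9 and 5 (5.19% and 2.92% of all genes).

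Single values changed sign. Between the wild types Mybl2 ran from -0.54 to 0.004 with 1 library left out, the latter without wild-type replicate 1 of the 70kb set. Against the other wild type Ncoa3 was at -0.10 (40kb) and Dppa3 at -0.33 (70kb). In the 40kb comparison Ncoa3 was at -0.022 in clone 1, and Nanog at -0.11, Tfcp2l1 at -0.13 and Rif1 at -0.012 in clone 2. The cause was not tested. In the 40kb comparison 29 genes were above 0 under each of the 3 scalings. With 2 wild-type libraries per set intervals were wide, as that of Nr0b1 in the 40kb comparison (0.49 to 1.86).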
